A study of Mus musculus with 4 samples.

Results

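The thapsigargin (Tg) list of spliced regions held 55 regions in 55 genes, of 2588 regions in the lists of both experiments. Members were all rows of the deposited Tg list, which are the regions found in the *Ire1*α heterozygous (Het) library and not in the knockout (KO) library. The Het library came from mouse embryonic fibroblasts (MEFs), which are cells grown from mouse embryos, treated with 500 nM Tg for 4 hours. The KO MEFs of this experiment carried a floxed *Ire1*α allele from which the kinase domain, and with it the RNase activity, had been removed, and both lines were C57BL/6. The labels call the KO cells untreated, whereas the methods of the study describe treatment of both genotypes. The other list, with 2533 regions, came from Het and KO MEFs of a different *Ire1*α null allele, with 1 mM dithiothreitol (Dtt) for 4 hours on the Het cells. Each genotype had 1 library in each experiment, so no value has a replicate check, and the KO columns of both lists hold no number. The lists hold no expression values, so neither the fibroblast identity nor the deleted gene could be checked in them.

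IRE1α is a kinase and endoribonuclease in the membrane of the endoplasmic reticulum (ER). When unfolded proteins build up there, it cuts the *Xbp1* mRNA at a pair of hairpins, the pieces are joined by a ligase outside the spliceosome, and the shifted frame encodes a transcription factor of the unfolded protein response. Tg starts this response by blocking the calcium pump of the ER. Ordinary introns are removed by the spliceosome and nearly always begin with GT, the donor, and end with AG, the acceptor.

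The sequences below show what the ends of the listed regions look like, and all were read from the mm9 assembly on the strand of the gene. The *Xbp1* region on chromosome 11 is shown from 5424281 to 5424312, with the bases repeated at its ends in capitals. The 26 bp gap can slide over these 6 bases, which gives 7 placements with the same joined sequence, and none has GT-AG ends.
Xbp1: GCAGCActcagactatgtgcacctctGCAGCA
Both 2 bp regions lay in repeats, whose bases are in capitals, and the gap can take any place within them. In *Cyr61* it can slide over 10 bases of a run of C, and the stretch runs from 145310274 to 145310299 on chromosome 3 of mm9. The gap can slide in *Abcf2* over 5 bases of an AG repeat, and the stretch runs from 24082345 to 24082365 on chromosome 5.
Cyr61: ctccagaCCCCCCCCCCCCtttcttg
Abcf2: caatggcAGAGAGAccacagg
In 6 genes an acceptor that is not annotated lay close after the annotated one. The first capital AG is the annotated acceptor and the last is the one used by the region.
Metap2: gtttgaacAGcAGtgcaacaa
Ttc39b: accttcacAGacAGgtggatgg
Cd81: atccctgcAGcaAGattgtcat
Dhx15: ccttgtttAGtcccacAGtgttttgt
Atn1: gacAGcaggagctccctcgcccgcAGtct
Parl: catAGgtgttatttccaattttgtcAGcta
In *Gpr124* the order was the other way, and the first capital AG is the one used.
Gpr124: ttcccctgAGgcAGctccatcc
In 3 genes a donor inside an exon was used. The first capital GT is the one used and the second the annotated one.
Neurl4: gcctccggGTaaagGTgactactc
Pdcd6: actctcagGTtttgGTaattcact
Ipo4: cagcagcaGTcccgGTgaggagga
In *Igfbp4* the annotated donor came first and the used one followed it.
Igfbp4: aagcaagaGTgagcagcagGTcacactgc
The donors of *Tatdn2* and *Usp47*, the intronic donors with the most reads, are shown with the GT in capitals.
Tatdn2: acctgcagGTaaaggggtct
Usp47: gtgaaccaGTgagtttattg
The 4 regions of 50 bp and over without GT-AG on the strand of the gene are shown in 1 placement of the gap, with its outer 2 bases in capitals. *Gcsh* had a GC donor and an AG acceptor, while *Best3*, *Rian* and *Adamts9* had neither.
Gcsh donor: agtgatagGCaagcacccat
Gcsh acceptor: cttgtgttttAGtgcgtaaa
Best3 first end: tctctcagCAcctagtaaat
Best3 second end: gtcgctgtgaCTcacctctt
Rian first end: cactaagtCCtccattatta
Rian second end: gatgtgagccCCcccccccc
Adamts9 first end: cggttcctATaggtagaaag
Adamts9 second end: aggtagccacCTtgtaggat

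Supporting reads were few. The regions had 135 reads in all, and 114 without *Xbp1*. *Xbp1* had 21 reads (95% exact Poisson interval 13.0 to 32.1), *Fhl1* had 4 (1.09 to 10.2), and *Cyr61*, *Tatdn2*, *Clip3* and *Usp47* had 3 each (0.619 to 8.77). The other 49 regions had 2 reads each (0.242 to 7.22), the minimum of the list, so a region with 1 read could not be listed. From the read numbers, the study proposes that regions with just 2 to 4 reads are probably false positives. That range takes in the 54 regions other than *Xbp1*, whose descriptions below are of listed gaps and not of proven splicing. The interval of *Xbp1* lay above that of every other region, and the intervals of the other 54 overlapped one another. These intervals cover counting error only, since reads that carry no molecular identifier may be copies of 1 molecule. Splice lengths ran from 2 bp in *Cyr61* and *Abcf2* to 21870 bp in *Best3*, with a median of 1455 bp and quartiles of 386.5 and 3772 bp. The 6 regions with at least 3 reads had a median of 216.5 bp.

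**Figure D1:**
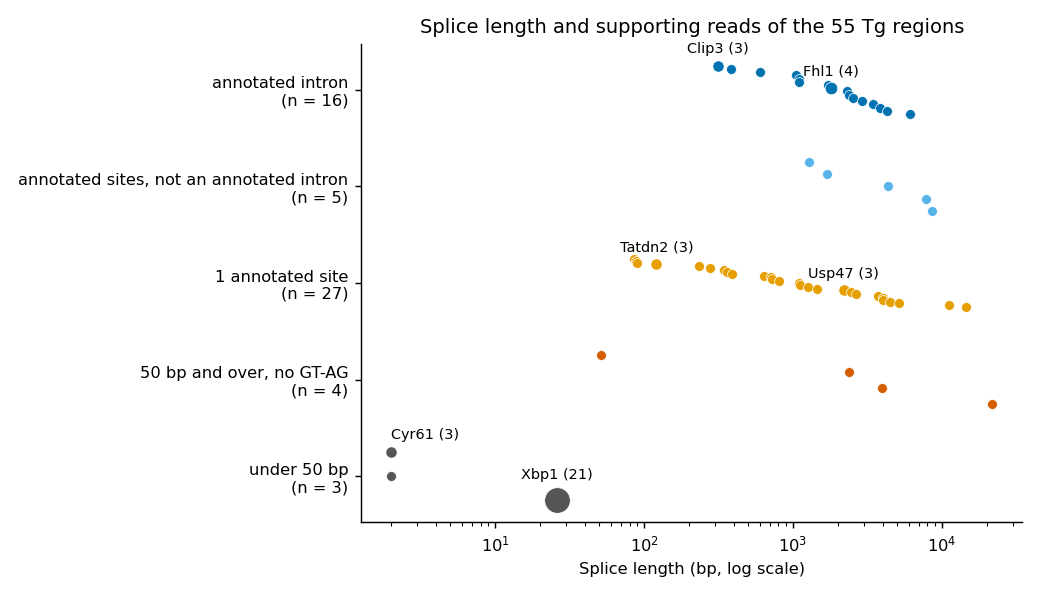
Splice length in bp on a log axis for each of the 55 Tg regions, in rows by what the mm9 annotation has at their ends. The area of a point grows with its supporting reads, and the 6 genes with 3 or more reads are named with their number. *Xbp1*, with 21 reads and 26 bp, is 1 of 3 regions under 50 bp.

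The regions were read against the GENCODE vM1 annotation. Of the 52 regions of 50 bp and over, 48 had GT-AG ends on the strand of the gene (92.3%, 95% Wilson interval 81.8 to 97.0). Placements of the gap on an annotated intron, with GT-AG ends or on annotated sites were preferred, which raises these counts. With placements inside the listed boundaries only, 35 of 52 (67.3%) had GT-AG ends. Among those 48, 16 were introns of an annotated transcript, 5 joined annotated donors and acceptors that no annotated transcript joins, and 27 had 1 annotated end. With a tolerance of 5 bp these numbers were 23, 5 and 20. A region then counted as an annotated intron if any placement of its gap had both ends within 5 bp of that intron's ends. *Pdcd6* and *Dhx15*, whose shown ends lie farther away, were counted in this way. No GT-AG region lacked an annotated site at both ends. The median length was 2052.5 bp for annotated introns (312 to 6105), 4382 bp for new pairs of known sites (1275 to 8659) and 1106 bp for regions with 1 annotated end (85 to 14604). The methods of the study left out regions within 5 bp of a UCSC known gene junction, a different annotation from the one used here.

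Of the 16 annotated introns, 10 belonged to a single annotated transcript of their gene. By their neighbours, 7 lay between coding exons, 6 between 5′ UTR or non-coding exons and 3 between other kinds, and 6 held an exon of another transcript.

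In the 27 regions with 1 annotated end, the donor was the missing one in 15 and the acceptor in 12. Where the donor was missing it lay in an intron of the transcript compared in 12 of 15, so that intron bases before it stayed in the joined sequence. In *Atxn2l*, among these, the donor lay in a 3′ UTR exon of another transcript. Where the acceptor was missing it lay in an exon in 8 of 12, so that exon bases were removed. The distance from the missing end to the nearest annotated site of its kind, on either side of it, was 3 to 3924 nt with a median of 103 nt. In 8 regions it was at most 8 nt, and in 14 it was over 100 nt.

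**Figure D2:**
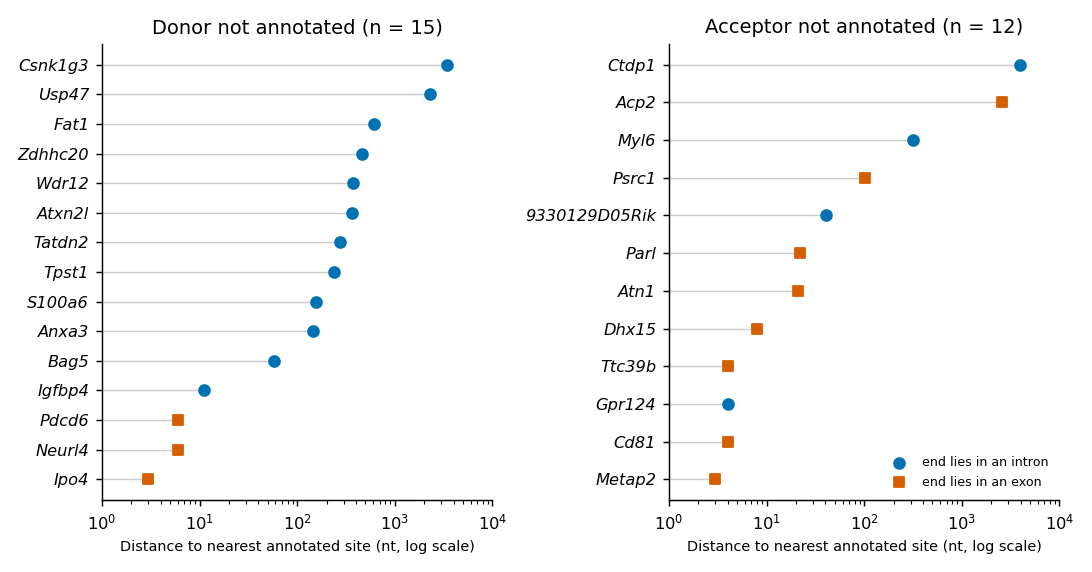
Distance in nt, on a log axis, from the end that is not annotated to the nearest annotated donor (left, 15 genes) or acceptor (right, 12 genes) on either side. Circles are ends in an intron and squares ends in an exon. The close ends, from *Metap2* and *Ipo4* at 3 nt to *Dhx15* at 8 nt, are mostly in exons, and the far ones mostly in introns.

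The letters of the sites were compared with those of the 898 annotated GT-AG introns of 50 bp and over in the same 55 genes. Donors were scored by matches to the common 9 letters, the last 3 of the exon and the first 6 of the intron. Acceptors were scored by C or T in 15 bases upstream of the AG, leaving out the 2 bases directly before it. The 15 donors that are not annotated had a median of 7 matches (2 to 8), as did the 33 annotated donors of the list (5 to 9) and the 898 introns (3 to 9). *Ipo4* had the fewest matches at 2, *Anxa3* had 4 and *Pdcd6* 5. The 12 acceptors that are not annotated had a median of 10 pyrimidines (7 to 14), against 12 (9 to 15) for the 36 annotated acceptors of the list and 12 (3 to 15) for the 898 introns. *Ttc39b* was lowest with 7 and *Acp2* highest with 14. These are descriptions of the mm9 sequence and were not tested.

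In 18 regions of 50 bp and over coding bases were removed between coding exons, counted in the transcript that loses the most. The number was a multiple of 3 in 11 and not in 7. Counted in the transcript that loses the fewest, it was a multiple of 3 in 8 of 15 regions (53.3%). In *Fhl1*, *Ltbp1* and *Atxn2* that transcript lost 0 coding bases. The frame could be followed from the annotated start in 20 genes. It became longer only in *Xbp1*, from 267 to 371 codons, and shorter in 19, of which 10 kept the frame. Of those 10, *Metap2* lost 1 codon, *Pdcd6*, *Ipo4* and *Atxn2* lost 2 each, and *Fhl1* and *Slc1a6* lost the most, from 323 to 194 and from 561 to 432 codons. In the other 9 the number of coding bases removed was not a multiple of 3. By the share of codons left, *Acp2* kept the most, with 390 of 423, and *Abcf2* the fewest, with 67 of 628, next to *Gstz1* with 24 of 216. These lengths are read from the sequence, and no protein was measured.

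**Figure D3:**
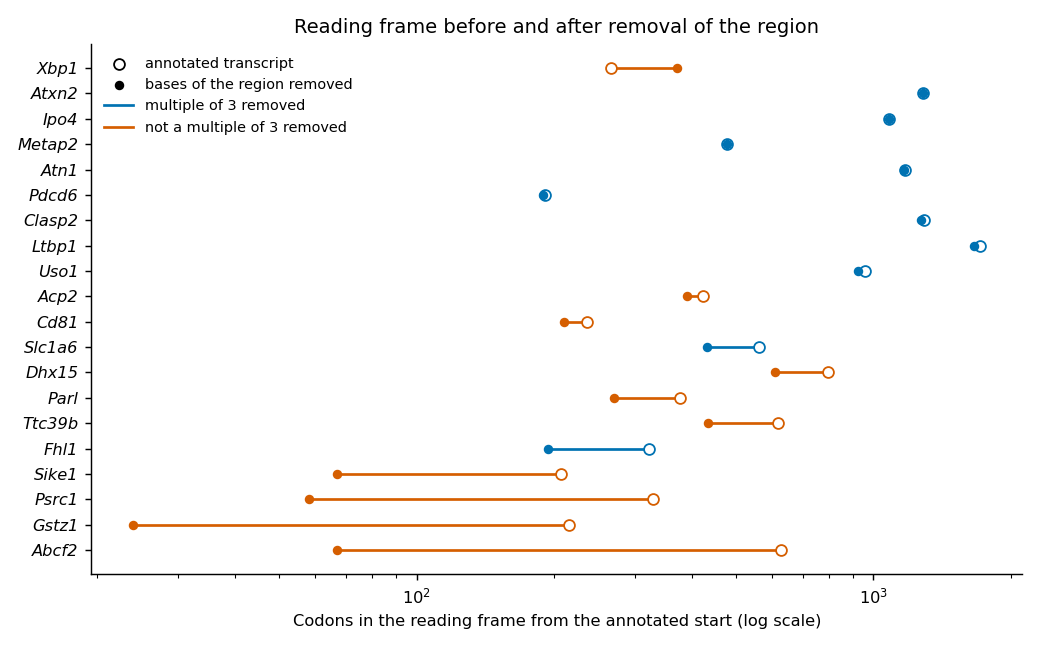
Codons from the annotated start to the first stop, on a log axis, in the annotated transcript (open circles) and after removal of the bases of the region (filled circles) for 20 genes. Blue lines mark a loss of a multiple of 3 coding bases and orange lines another number. *Xbp1*, at the top, is longer after removal, and *Abcf2* at the bottom falls from 628 to 67 codons.

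Of the 7 genes of the stress response, protein folding and the secretory pathway, with 33 reads in all, *Xbp1* was the only one under 50 bp. Its region at chr11:5424285-5424310 lay in the coding part of exon 4 of Xbp1-001, and the same gap had 173 reads in the Dtt list. GENCODE vM1 has this placement as an intron of 1 of the 6 *Xbp1* transcripts. *Txndc9*, a thioredoxin-like protein that acts on the chaperonin, had 2 reads over an annotated 5′ UTR intron of Txndc9-003, between exons 1 and 2 (chr1:38052687-38053737). *Bag5*, a co-chaperone of Hsp70, had a donor 517 nt into intron 1, joined to the acceptor of exon 2 in the 5′ UTR (chr12:112949624-112950737). *Uso1*, the tether of vesicles between ER and Golgi, joined exon 20 to exon 22 over 4382 bp (chr5:92624461-92628842). This removed 99 coding bases and left 926 of 959 codons in frame.

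The other 3 genes of the group act later in the secretory route. *Zdhhc20*, a palmitoyltransferase, had a donor 1278 nt after exon 11 joined to exon 12 over 345 bp (chr14:58458043-58458387). *Tpst1*, the Golgi enzyme that sulfates tyrosines, had the longest GT-AG region, 14604 bp from a donor 237 nt after exon 3 to exon 4 (chr5:130590774-130605377). *Acp2*, the lysosomal acid phosphatase, joined exon 10 to an acceptor 2985 nt into exon 11, in the 3′ UTR (chr2:91048594-91053748). The removed stretch held the last 131 coding bases, and the frame ran to 390 codons against 423. *Acp2* also had a 352 bp region with 2 reads in the Dtt list, at another place in the gene.

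In the ubiquitin and peptide processing group, with 4 genes and 9 reads, 3 of the 4 also had a Dtt region, against 23 of all 55 genes. *Usp47*, a deubiquitinase, had 3 reads from a donor 2272 nt after exon 12 to exon 13 (chr7:119223746-119225943). *Uevld*, which combines a ubiquitin-conjugating fold without activity and a lactate dehydrogenase fold, had 2 reads over an intron between exons 10 and 11 of Uevld-002, a transcript annotated for nonsense-mediated decay (chr7:54186423-54190252). *Neurl4*, a centriolar protein with neuralized repeats, lost the last 6 bases of exon 14 before exon 15 (chr11:69721509-69721597). *Metap2*, which takes the initiator methionine off new proteins, lost the first 3 bases of exon 3 (chr10:93349844-93352282). The Dtt regions of *Usp47* (1370 bp, 2 reads), *Uevld* (3510 bp, 3 reads) and *Neurl4* (99 bp, 2 reads) did not overlap the Tg regions.

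The 8 genes of RNA, ribosome and translation had 2 reads each, 16 in all. *Dhx15*, an RNA helicase that takes the spliceosome apart, lost the first 8 bases of exon 11, which left 608 of 795 codons (chr5:52548809-52551468). *Wdr12*, a factor of large ribosomal subunit assembly, had a donor 370 nt after exon 4 joined to exon 5 (chr1:60145001-60145725). *Abcf2*, an ATPase of the ABC-F family, had a 2 bp region in the AG repeat of exon 2 (chr5:24082355-24082356) that left 67 of 628 codons. *Dohh*, which completes hypusine on the translation factor eIF5A, had a 5′ UTR intron between exons 1 and 2 of Dohh-006 (chr10:80847372-80848463).

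*Atxn2* and *Atxn2l* are paralogous RNA-binding proteins, and their regions differed in kind. In *Atxn2* it was an intron between exons 4 and 5 of Atxn2-007 (chr5:122247795-122252089), which removes 6 coding bases of Atxn2-001 and leaves 1284 of 1286 codons. In *Atxn2l* it ran from a donor 363 nt after exon 22, within the 3′ UTR of another transcript, to exon 23 over 233 bp (chr7:133635730-133635962). The Dtt list had 2 other *Atxn2l* regions, of 149 and 3 bp, with 2 reads each.

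A pair of long non-coding RNAs completed the group. *Malat1*, a nuclear RNA, had an annotated 603 bp intron of Malat1-005 near its end (chr19:5795786-5796388). *Rian*, an imprinted RNA that carries small nucleolar RNAs, had a 51 bp region in its last exon, exon 21, that ended at a run of C (chr12:110899601-110899651). The Dtt list had 1 *Malat1* region (143 bp) and 3 *Rian* regions (359, 798 and 1070 bp), all elsewhere in the genes.

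Of the 8 genes of transcription, nuclear transport and signalling, with 17 reads, 6 had 1 annotated end, against 27 of all 55. *Tatdn2*, a putative DNase of the TatD family, had 3 reads from a donor 276 nt after exon 6 to exon 7 over 121 bp (chr6:113659914-113660034). *Atn1*, the corepressor atrophin 1, lost the first 21 bases of exon 5, or 7 of 1175 codons (chr6:124697987-124699253). *Ipo4*, an importin, lost the last 6 bases of exon 22 (chr14:56247825-56247909), and an annotated donor of another transcript, which does not begin with GT, lay 3 nt away. *Pdcd6*, a calcium-binding protein also known as ALG-2, lost the last 6 bases of exon 4 (chr13:74443099-74447137). Both kept the frame, with 1080 of 1082 and 189 of 191 codons. *Csnk1g3*, a casein kinase, had a donor 3403 nt after exon 10 joined to exon 11 over 11099 bp (chr18:54096603-54107701). *Ctdp1*, a phosphatase of the tail of RNA polymerase II, joined exon 10 to an acceptor 7843 nt before the next exon (chr18:80638911-80642624).

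The other 2 genes of this group used annotated sites at both ends. *Sike1*, a suppressor of the kinase IKKε, joined exon 1 to exon 3 and lost 106 coding bases, with 67 of 207 codons left (chr3:102799891-102801165). *N4bp2*, which binds the ubiquitin ligase Nedd4, had an intron between exons 4 and 5 of N4bp2-003, a non-coding transcript (chr5:66175616-66177344). Of the 8 genes, *Atn1* was the only one with a Dtt region, which was 2 bp long with 2 reads.

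The 6 genes of secreted and matrix proteins had 13 reads, and 5 of the 6 had Dtt regions, against 23 of the 55 genes of the list. *Cyr61*, a matricellular protein, had 3 reads over 2 bp in the run of C of its 3′ UTR (chr3:145310283-145310284), and a Dtt region of 2 bp with 2 reads lay elsewhere in the gene. *Igfbp4*, which binds insulin-like growth factors, had a donor 11 nt after an annotated one in intron 1, joined to exon 2 (chr11:98908729-98909539). Its Dtt region was 2 bp long with 10 reads, at another place. *Ltbp1*, which binds latent TGF-β, had an intron between exons 7 and 8 of Ltbp1-007, which removes 159 coding bases of Ltbp1-001 and leaves 1659 of 1712 codons (chr17:75673375-75675894). *Bgn*, the proteoglycan biglycan, had an intron between exons 1 and 2 of the non-coding Bgn-005 (chrX:70729102-70735206). With 9 Dtt regions and 19 reads in them, *Bgn* had the most Dtt regions of the 55 genes, and none overlapped its Tg region. *Csf1*, the macrophage growth factor, had an intron between exons 1 and 2 of Csf1-005 (chr3:107560047-107562942).

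*Adamts9*, a matrix metalloprotease, had a 3971 bp gap inside intron 28 (chr6:92791981-92795951). It had GT-AG ends on the opposite strand and matched an intron of A730049H05Rik, a gene annotated there on the other strand. The same gap had 2 reads in the Dtt list. Neither end lay at an annotated splice site of *Adamts9*. Strand was not recorded in the list, and which of these genes the reads came from was not tested. *Best3*, a bestrophin chloride channel, also had GT-AG ends on the opposite strand (chr10:116439049-116460918), both inside introns, and no annotated intron matched it on either strand.

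The 9 genes of the cytoskeleton and adhesion had 21 reads, and 5 of the 9 regions were annotated introns, against 16 of all 55. *Fhl1*, a LIM domain protein abundant in muscle, had 4 reads over an intron of 2 of its 11 transcripts (chrX:54043224-54045020). It removes 387 coding bases of Fhl1-002, with 194 of 323 codons left. A Dtt region of 85 bp with 2 reads ended at the same acceptor, and 3 other Dtt regions lay elsewhere in *Fhl1*. *Clip3*, a microtubule-associated protein of the Golgi, had 3 reads over a 312 bp 5′ UTR intron between exons 1 and 2 of Clip3-002 and Clip3-003 (chr7:31076862-31077173). *Epb4.1l3*, a membrane skeleton protein, had an intron between exons 13 and 14 of 1 of its 7 transcripts (chr17:69620005-69623440). *Nav2*, a microtubule-binding neuron navigator, had one between exons 27 and 28 that 3 of its 5 transcripts share (chr7:56838328-56839419). *Myo5a*, a motor of vesicle transport, had one between exons 30 and 31 that 5 of its 14 transcripts share (chr9:75037808-75040190).

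The other 4 cytoskeleton and adhesion genes had ends or pairs that are not annotated. *Clasp2*, which stabilises microtubule plus ends, joined exon 12 to exon 15 over 7839 bp and lost 42 coding bases, with 1273 of 1287 codons left (chr9:113763465-113771303). *Psrc1*, a spindle microtubule protein, lost the first 103 bases of exon 4, with 58 of 329 codons left (chr3:108187350-108187990). *Myl6*, the essential light chain of nonmuscle myosin, joined exon 5 to an acceptor 314 nt before the next exon (chr10:127928404-127929114). *Fat1*, a giant protocadherin, had a donor 617 nt after exon 26 joined to exon 27 (chr8:46131140-46135195).

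The 6 genes of membrane proteins and channels, *Best3* among them, had 2 reads each. *Slc1a6*, a glutamate transporter, joined exon 4 to exon 7 over 8659 bp, which removed 387 coding bases and left 432 of 561 codons in frame (chr10:78254115-78262773). A Dtt region of 1925 bp with 2 reads overlapped it but had other ends. *Cd81*, a tetraspanin, lost the first 4 bases of exon 7 (chr7:150252668-150253055). *Gpr124*, an adhesion receptor of brain endothelium, gained 4 intron bases before the next exon (chr8:28229324-28229601). *Anxa3*, an annexin, had a donor 3293 nt after exon 7, and the 88 bp to exon 8 were removed (chr5:97257279-97257366). A Dtt region of 3376 bp with 2 reads ended at the same acceptor. *S100a6*, a small calcium-binding protein, had a donor 156 nt after exon 1, joined to exon 2 in the 5′ UTR (chr3:90417305-90417664).

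In the 4 genes of metabolism and mitochondria, with 8 reads, 3 regions removed coding bases and in none was the number a multiple of 3, against 11 of the 18 such regions of the list. *Gstz1*, an enzyme of tyrosine breakdown, joined exon 2 to exon 4 and lost 68 coding bases (chr12:88498895-88500589). *Parl*, the rhomboid protease of mitochondria, lost the first 22 bases of exon 7, with 271 of 377 codons left (chr16:20285887-20286992). *Ttc39b*, a protein with tetratricopeptide repeats, lost the first 4 bases of exon 16, with 434 of 617 codons left (chr4:82886095-82887549). *Gcsh*, the H protein of glycine cleavage, had the list's only GC-AG ends, from 1720 nt after exon 1 to the annotated acceptor of exon 2 (chr8:119513104-119515467).

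The last 3 genes were listed by clone identifiers. 1110005A03Rik had an intron between exons 2 and 3 of 2 of its 6 transcripts (chr11:116707260-116709567). 2900010J23Rik, *Swi5* in the annotation, had an intron between exons 1 and 2 of Swi5-004 (chr2:32143166-32143550). 9330129D05Rik, *Acad12* in the annotation, joined exon 1 to an acceptor 41 nt before the next exon (chr5:122064310-122068779). None of these 3 had a Dtt region.

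Along the genes, the middle of the gap lay in the first 25% of the gene in 10 regions, from 25 to 50% in 10, from 50 to 75% in 16 and in the last 25% in 19, with a median of 68.0% of the gene's length. *Clip3* at 2.0% and 2900010J23Rik at 2.6% lay nearest to the start, and *Rian* at 99.5% and *Fhl1* at 96.1% nearest to the end. How evenly reads covered the genes was not tested.

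**Figure D4:**
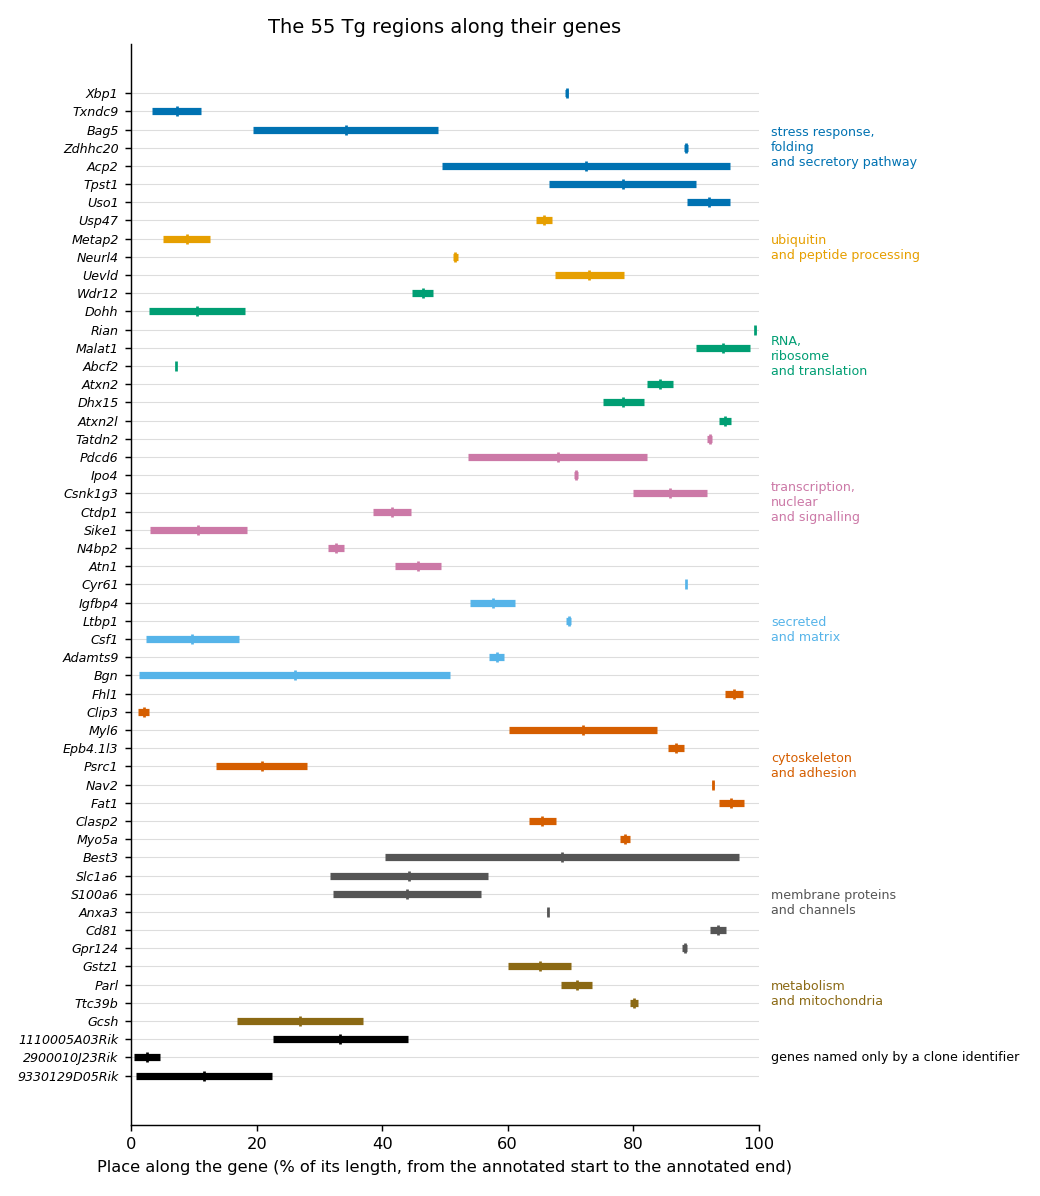
The 55 Tg regions along their genes, from the annotated start (0%) to the annotated end (100%) of each gene, grouped by function. Bars span the removed stretch, and ticks mark its middle, which lies past 50% in 35 genes.

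The Tg list was set beside the Dtt list to see where it differs. Treatment, read length, knockout allele, number of reads and date of sequencing differed between the experiments at once, with reads of 35 nt for Tg and 79 nt for Dtt, so their parts in any difference cannot be told apart. The share with GT-AG ends was 92.3% (48 of 52) for Tg and 91.3% (1871 of 2049) for Dtt. Annotated introns made up 30.8% of the Tg regions of 50 bp and over (16 of 52, 95% interval 19.9 to 44.3) and 17.7% for Dtt (363 of 2049, 16.1 to 19.4). The odds ratio was 2.06, and Fisher's exact test, two-sided, gave p = 0.0262, or 0.0565 after adjustment over the 6 comparisons. Losses of a multiple of 3 coding bases made up 61.1% for Tg (11 of 18, 38.6 to 79.7) and 34.3% for Dtt (271 of 791, 31.0 to 37.6), an odds ratio of 3.02 (same exact test, p = 0.0238, adjusted 0.0565). Regions over 1 kb made up 63.6% (35 of 55, 50.4 to 75.1) and 47.9% (1214 of 2533, 46.0 to 49.9), an odds ratio of 1.90 (same exact test, p = 0.0282, adjusted 0.0565). These length shares are of all regions, and those under 50 bp made up 5.45% of the Tg list (3) and 18.9% of the Dtt list (479). Among regions with at least 3 reads the odds ratio for lengths over 1 kb turned to 0.583 (2 of 6 against 276 of 598, same exact test, p = 0.692). After adjustment none of the 6 comparisons passed the threshold of 0.05. The shares with both ends annotated (43.8% and 39.1%, exact p = 0.550) and with coding bases on both sides (42.3% and 42.9%, exact p = 1.0) had odds ratios of 1.21 and 0.976. Each test compares 2 lists from single libraries and not 2 treatments, and regions are not replicates.

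**Figure D5:**
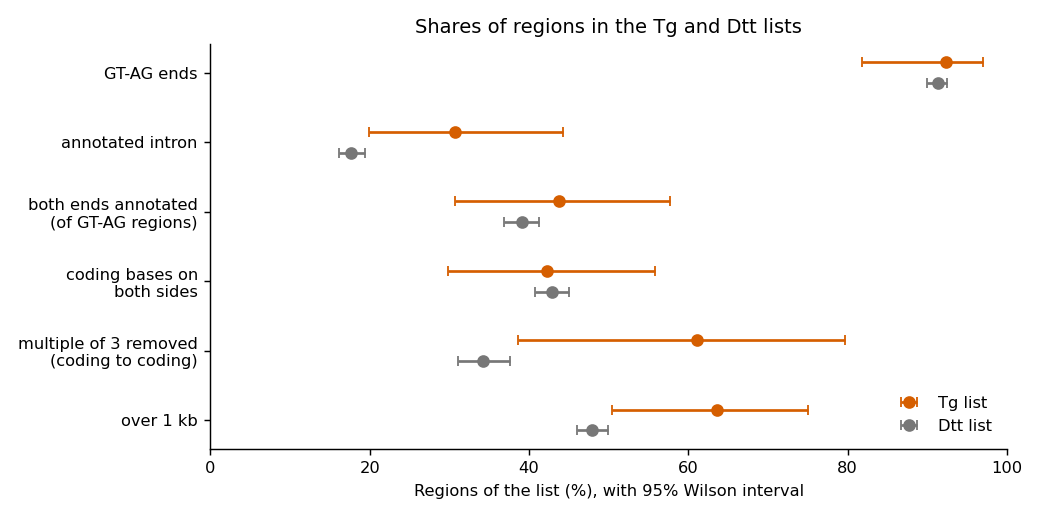
Share of regions in % with 95% Wilson intervals for 6 properties in the Tg list (orange) and the Dtt list (grey). The Tg intervals are wide, since they rest on 18 to 55 regions, and for annotated introns, multiples of 3 and lengths over 1 kb they lie to the right of the Dtt intervals.

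Of the 55 Tg genes, 23 had 42 regions in the Dtt list, 11 of which were 2 bp long, and 32 had none. Only *Xbp1* and *Adamts9* had the same gap in both lists, with 21 and 173 reads for *Xbp1* and 2 and 2 for *Adamts9*. The gap listed for *Adamts9* is the one that matched an intron of A730049H05Rik on the other strand. *Fhl1* and *Anxa3* shared an acceptor with a Dtt region of another length. In the other genes with Dtt regions, apart from *Slc1a6*, the regions did not overlap.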

How the data were processed

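RNA-Seq of *Ire1*α Het and KO MEFs was made from 1 library per genotype in each of 2 experiments. The authors mapped the reads with Bowtie to mm9 and the junctions of known genes, trimmed the unmapped ones to 33 nt (Tg) and 77 nt (Dtt), split them into parts of at least 11 nt and joined split reads of 1 gene into regions. The deposited counts give, without normalization, how many reads of the Het library support a region, with a minimum of 2. Regions with a KO match or near a known junction had been left out, so Het and KO could not be compared. Lengths and boundaries were used as the authors give them, and 0 other columns of per-sample values were left unused.

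Genes were found in GENCODE vM1 by symbol (53 Tg regions) or another symbol (2). Each gap was placed on mm9 within its listed boundaries or by sliding over equal bases, and placements on an annotated intron or with GT-AG ends were preferred. Ends were called for regions of 50 bp and over. All 55 genes are named, and groups were set by hand from known functions. The members and lists were chosen with earlier results of these data known. Shares were compared with two-sided Fisher's exact tests, adjusted by Benjamini-Hochberg over 6 comparisons, with 95% Wilson intervals. The steps were tested on simulated data. The 135 supporting reads are those of the listed regions and not the depth of the library, and a region of 2 reads has the wide interval given. Alternatives covered placement, strand, tolerance, transcript choice, read minimum and the choice of Dtt regions. Python 3.11.15, numpy 2.4.6, scipy 1.17.1, pysam 0.24.0 and matplotlib 3.10.9 were used.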

Additional observations from a re-analysis of the deposited data

How the results depend on the processing

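With only placements inside the listed boundaries, 67.3% of the Tg regions of 50 bp and over (35 of 52) had GT-AG ends. With at least 3 reads, the GT-AG share was 100% (4 of 4), the annotated intron share 50%, the share with coding bases on both sides 25% and the median length 216.5 bp. In that setting the odds ratio for lengths over 1 kb turned to 0.583 (2 of 6 regions, Fisher's exact p = 0.692). The construction leaves 6 Tg regions, and gave no odds ratio for GT-AG ends or multiples of 3, where no region of the Tg list lacked the property. Of the other values under alternatives, 12 odds ratios, those with other choices of Dtt regions, kept their direction, with adjusted p-values above 0.05 as in the report. With at least 3 reads the odds ratio for coding bases on both sides was 0.383, and such tests on 4 Tg regions say nothing about stability. Shares, counts and the median have no test. With a tolerance of 5 bp at both ends, for any placement of the gap, annotated introns went from 16 to 23. Their share went from 30.8% to 44.2%, and regions with 1 annotated end from 27 to 20. Including losses of 0 coding bases or regions under 50 bp, both chosen after seeing the data, gave 68.2% and 55% of losses in multiples of 3. No paired analysis was possible because each experiment has 1 library per genotype and the lists give no KO value. At the depth of these libraries 49 of 55 regions stand at the minimum of 2 reads, and regions under it were not listed.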
